A study of Mus musculus with 4 samples.

Results

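The genes described here are those of autophagy, of the lysosomal membrane and its transcription factors, and of the cathepsins, in eye tissue of mouse embryos labelled Anp32b knockout and wild type. They were chosen by symbol (Atg genes, Ulk1 to Ulk3, Becn1, Map1lc3a and Map1lc3b, the Gabarap genes, Sqstm1, Wipi1, Wipi2, Rb1cc1, Tfeb, Tfe3, Lamp1, Lamp2 and every Cts gene named with a single letter), which gave 51 of the 18702 genes listed in each library. Of the 51, 31 belong to the autophagy machinery, 16 are cathepsins, and 4 are the lysosomal membrane genes Lamp1 and Lamp2 and the transcription factor genes Tfeb and Tfe3. Bulk RNA sequencing of total RNA was done on 2 libraries labelled KO, from Anp32b−/− embryos, and 2 libraries labelled WT, from Anp32b+/+ embryos, all of the C57BL/6 strain. The sources used here do not give the embryonic stage, the sex, how many embryos were pooled, the design of the allele or which cells carry it. Separate embryos behind the 2 libraries of a group are not stated either, and the p-values then measure only a spread that may be technical.

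In autophagy, a kinase complex built on ULK1 and a lipid kinase complex that holds Beclin 1 start a membrane that grows around cell material, and ATG8 proteins are joined to the lipids of that membrane by a ubiquitin-like conjugation pathway. The closed autophagosome fuses with the lysosome, where cathepsins, proteases active at acid pH, digest the content. The lens clears its organelles as fibres mature, pigment epithelium digests photoreceptor material, and macrophages and osteoclasts carry large amounts of cathepsins, of which cathepsin K degrades collagen of bone matrix outside the cell.

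Levels are FPKM, fragments scaled to the length of the transcript and to the depth of the library. Anp32b, the targeted gene, stood at 94.53 and 92.67 FPKM in the KO libraries, against 163.18 and 179.12 FPKM in the WT libraries, a log2 fold change of −0.86 (limma adjusted p = 1.11e-05). The transcript was thus lower but not absent in the libraries labelled KO. The steps between low values gave estimated depths of 18.0 to 18.1 M fragments in the KO libraries and 18.16 to 18.26 M in the WT libraries. Lens fibre markers summed to 3146 and 3173 FPKM in the KO libraries, against 33050 and 33660 FPKM in the WT libraries. Of these markers 10 of 10 were called lower, as were 21.1% of all genes tested. Retinal, lens and pigment cell markers of eye tissue were present in all libraries, as were skeletal muscle markers, which summed to 2229 and 2266 FPKM in the KO libraries, against 1081 and 1125 FPKM in the WT libraries. FPKM is relative to all fragments of a library, so each level depends on how the libraries are scaled, and other scalings are given where they change a result.

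Most of the cathepsin genes tested were called higher in the KO, and most of the autophagy genes tested were not called. Of 45 members with a mean of at least 1 FPKM, the level needed for testing, 17 were called higher and 5 lower in the KO (limma, Benjamini-Hochberg adjusted p under 0.05 over all 13887 genes tested), where 54.6% of all genes tested were called, 33.5% higher and 21.1% lower. Of 11 cathepsins tested 8 were higher and 1 lower (72.7% and 9.09%), with a median log2 fold change of 0.34. Of 30 autophagy genes tested 6 were higher and 4 lower (20.0% and 13.3%), with a median of 0.03, next to 0.04 over all genes tested. The median size of the change, whatever its direction, was 0.34 for cathepsins, 0.10 for autophagy genes and 0.18 over all genes. Both KO values lay outside the range of the WT values in 10 of 11 cathepsins and in 23 of 30 autophagy genes (76.7%), and in 77.9% of all genes tested (45.6% with KO above and 32.4% with KO below). In bulk tissue, fewer cells of a type and less RNA per cell cannot be told apart. The 6 members below the level for testing were Atg9b, Ctse, Ctsg, Ctsj, Ctsq and Ctsw, and the difference between cathepsins and autophagy genes was not tested, since genes are not replicates.

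**Figure D1:**
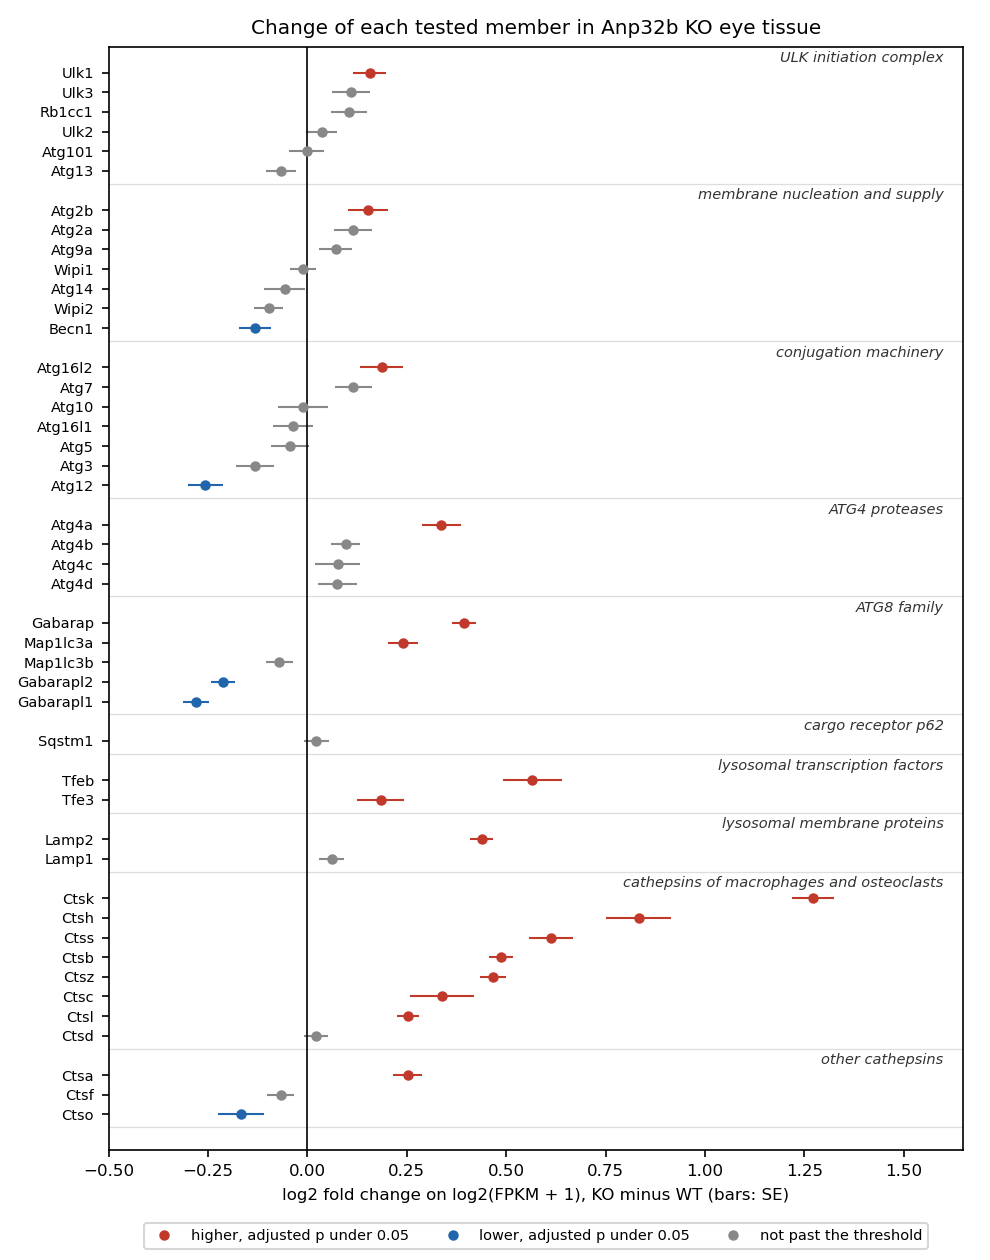
Log2 fold change, KO minus WT, on the log2(FPKM + 1) scale for the 45 tested members, grouped by role, with the standard error as bars and n = 2 libraries in each group. The points of the cathepsins reach 1.27 for Ctsk, whereas those of the autophagy genes lie between −0.28 and 0.39.

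The contrast was also seen as levels within each library. The mean of log2(FPKM + 1) over the 11 cathepsins exceeded that over the 30 autophagy genes by 0.92 and 0.92 in the KO libraries, against 0.58 and 0.54 in the WT libraries. Cathepsin transcripts summed to 809.5 and 820.0 FPKM in the KO libraries, against 688.3 and 667.8 FPKM in the WT libraries, and those of the 31 autophagy genes to 908.9 and 917.2 FPKM, against 895.9 and 888.9 FPKM. The ratio of these sums, which does not depend on the scaling of a library, was 0.89 and 0.89 in the KO libraries and 0.77 and 0.75 in the WT libraries. The autophagy counts differed between scalings by more than the cathepsin counts. With the deposited TPM values, where the median log2 fold change of all genes was 0.16 instead of 0.04, 17 autophagy genes were higher and 3 lower and 9 cathepsins higher and 0 lower, where 49.9% of all genes were higher and 12% lower. After scaling that left out crystallin and erythroid genes, called lens-free scaling here (median of all genes −0.04), the counts were 3 and 8 for autophagy genes and 8 and 2 for cathepsins, where 25.4% of all genes were higher and 31.2% lower, and median-of-ratios scaling (median −0.01) gave the same counts, against 27.9% and 27.3%. The remaining settings called 33.4% of all genes higher and 21% lower (pseudocount 0.1), 24.4% and 14.8% (no filter), 34.1% and 23.1% (at least 5 FPKM) and 34.4% and 21.9% (replicate block). Leaving out KO replicate 1 gave 24.6% and 14.8%, KO replicate 2 24.3% and 14.7%, WT replicate 1 28.4% and 16.5% and WT replicate 2 27.5% and 16.3%, and these settings enter only where they changed a call. Relative to the median of all genes, the autophagy median lay between −0.03 and 0.01 and the cathepsin median between 0.23 and 0.40 under every setting run.

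Cathepsin K showed the largest change of the 45 tested members. Ctsk (Entrez 13038; a protein-coding gene on the plus strand of chromosome 3, positions 95499256 to 95509362 of GRCm38), which encodes the collagen-degrading cysteine protease of osteoclasts, had 45.56 and 49.61 FPKM in the KO libraries, against 19.85 and 18.39 FPKM in the WT libraries. The lower KO value was above the higher WT value by more than either group's spread, and the KO mean of 47.6 ± 2.86 FPKM was 2.49-fold the WT mean of 19.1 ± 1.03 FPKM (SD, n = 2 each; log2 fold change 1.27, SE 0.05, limma adjusted p = 4.53e-06). Ranked by log2 fold change from the highest, Ctsk stood at 45 of the 13887 genes tested, and it was the only tested member with a change of at least 1 on the log2 scale, which 1.52% of all genes reached upward and 0.828% downward. Its share of all cathepsin FPKM was 5.63% and 6.05% in the KO libraries, against 2.88% and 2.75% in the WT libraries.

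Next to Ctsk on chromosome 3 (positions 95526786 to 95556403, plus strand) lies Ctss, the gene of cathepsin S, a protease with which macrophages and other antigen-presenting cells trim the MHC class II invariant chain. Ctss had 9.05 and 9.41 FPKM in the KO libraries, against 5.81 and 5.57 FPKM in the WT libraries (log2 fold change 0.61, SE 0.05, adjusted p = 0.000116). The groups did not overlap, and the KO mean was 1.62-fold the WT mean. The ratio of Ctsk to Ctss was 5.03 and 5.27 in the KO libraries and 3.42 and 3.30 in the WT libraries, so the neighbours did not change by the same factor.

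Ctsh, which encodes the aminopeptidase cathepsin H, came second in size, with 24.73 and 23.01 FPKM in the KO libraries, against 14.22 and 11.79 FPKM in the WT libraries (log2 fold change 0.83, SE 0.08, adjusted p = 0.000183). Its WT libraries differed more from each other than those of most cathepsins, and still lay below both KO libraries. Ctsb, the gene of cathepsin B, an abundant endo- and exopeptidase, had 156.91 and 161.19 FPKM in the KO libraries, against 114.35 and 111.92 FPKM in the WT libraries (0.49, adjusted p = 2.1e-05). Ctsz, for the carboxypeptidase cathepsin Z, had 54.36 and 55.91 FPKM in the KO libraries, against 40.11 and 39.06 FPKM in the WT libraries (0.47, adjusted p = 3.92e-05). Ctsl, for cathepsin L, had 131.34 and 132.86 FPKM in the KO libraries, against 110.94 and 110.48 FPKM in the WT libraries (0.25, adjusted p = 0.000281). These genes kept their groups apart, and each stayed called under every setting other than the demand for a change of at least 1. The Ctsb and Ctsl exons overlap genes on the other strand, and no source used here says whether the counting was strand-specific. Ctsl exons also share 395 bases with Gm49230, a processed pseudogene on the same strand. For Ctsb the partner Fdft1 went the other way, with 30.19 and 31.15 FPKM in the KO libraries, against 35.54 and 36.28 FPKM in the WT libraries.

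Ctsc, for the dipeptidyl peptidase that activates granule serine proteases, had 8.12 and 7.37 FPKM in the KO libraries, against 5.47 and 6.37 FPKM in the WT libraries (log2 fold change 0.34, SE 0.08, adjusted p = 0.0103). Its groups were apart, but the gap was close to the spread within a group, and the call was lost without KO replicate 1 (adjusted p = 0.0964) and without WT replicate 1 (adjusted p = 0.0615). Ctsd, for the aspartic protease cathepsin D, was the most abundant cathepsin and was not called, with 274.35 and 275.02 FPKM in the KO libraries, against 275.20 and 266.24 FPKM in the WT libraries (0.02, SE 0.03, adjusted p = 0.577). It was called higher with TPM (0.14, adjusted p = 0.0054). Its exons share 808 bases with Gm49369, a protein-coding gene on the same strand. Ctsd held 33.9% and 33.5% of all cathepsin FPKM in the KO libraries, against 39.98% and 39.87% in the WT libraries. Of the 8 cathepsins grouped as those of macrophages and osteoclasts, 7 were thus higher, Ctsd was not called, and the median was 0.48.

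Of the 3 tested cathepsins outside that group, 1 was higher, 1 lower and 1 not called. Ctsa, which encodes the carboxypeptidase that protects lysosomal galactosidase and neuraminidase, had 49.89 and 50.05 FPKM in the KO libraries, against 42.99 and 40.64 FPKM in the WT libraries (0.25, adjusted p = 0.00115), and its exons overlap Pltp and Neurl2 on the other strand, which were called higher as well (0.28 and 0.51). Ctsf, for cathepsin F, had 48.78 and 49.43 FPKM in the KO libraries, against 52.52 and 50.48 FPKM in the WT libraries (−0.07, adjusted p = 0.129), and it was called lower with lens-free scaling (−0.15) and with median-of-ratios scaling (−0.12). Ctso, for cathepsin O, had 5.44 and 5.34 FPKM in the KO libraries, against 6.28 and 6.07 FPKM in the WT libraries (−0.17, adjusted p = 0.0423). That call was lost when any library was left out (adjusted p = 0.108 without KO replicate 1, 0.144 without KO replicate 2, 0.14 without WT replicate 1 and 0.0798 without WT replicate 2), with the replicate block (0.0509), with TPM (0.391) and without a filter (0.0662).

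The remaining 5 cathepsins were near the limit of detection. Ctse, of stomach and immune cells, Ctsg, of neutrophil granules, and Ctsw, of cytotoxic lymphocytes, stood between 0 and 0.50 FPKM in every library. Ctsj and Ctsq belong to a cathepsin cluster of the rodent placenta on chromosome 13. Ctsq was listed at 0 in both WT libraries and in KO replicate 2, and at 0.12 FPKM in KO replicate 1. Ctsj had 0.27 and 0.31 FPKM in the KO libraries, against 0.08 and 0.04 FPKM in the WT libraries, where 3 fragments are worth about 0.12 FPKM for this transcript, and it is a close relative of the other placental cathepsins, so its value is uncertain. Atg9b, a form of the autophagy scramblase ATG9 described in human placenta and pituitary, was the only autophagy gene below the level for testing. It had 0.35 and 0.45 FPKM in the KO libraries, against 0.49 and 0.43 FPKM in the WT libraries, where 3 fragments are worth about 0.043 FPKM for this transcript.

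**Figure D2:**
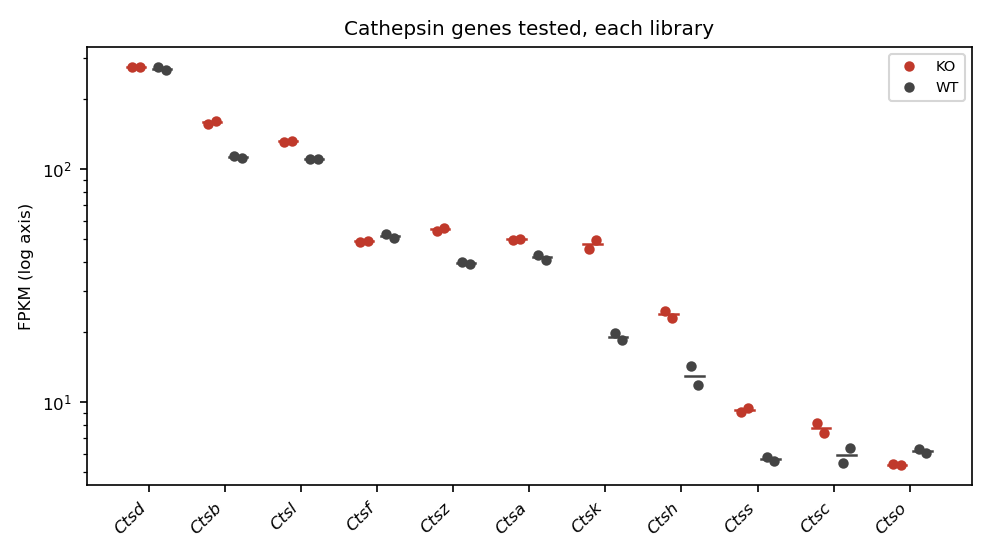
FPKM of the 11 tested cathepsins in each library on a log axis, ordered by mean level, with a point for each library and a line at the mean of the 2 libraries. The KO points of Ctsk (45.56 and 49.61) stand clear of its WT points (19.85 and 18.39), and those of Ctsd overlap (274.35 and 275.02 against 275.20 and 266.24).

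Markers of several cell types were higher in the KO, among them cells rich in cathepsins. Over all genes tested, 45.6% had both KO values above both WT values, and 33.5% were called higher. All 15 macrophage markers tested had both KO values above both WT values, but Adgre1 reached the level for testing through its KO values alone. The lowest p-values were those of Tyrobp, an adaptor of myeloid receptors (1.22), Laptm5 (0.70), the lysozyme gene Lyz2 (1.18) and the Fc receptor gene Fcgr3 (0.95). The summed level of all 16 macrophage markers listed was 149.2 and 160.2 FPKM in the KO libraries, against 88.31 and 81.65 FPKM in the WT libraries. The osteoclast list held 9 markers. Acp5, the tartrate-resistant acid phosphatase, had 6.62 and 8.0 FPKM in the KO libraries, against 0.95 and 0.97 FPKM in the WT libraries. Only Acp5, Mmp9 and Itgb3 reached the level for testing, Acp5 and Mmp9 through their KO values alone, so no count is given for this list. The list summed to 18.02 and 20.36 FPKM in the KO libraries, against 4.50 and 4.79 FPKM in the WT libraries. The osteoclast fusion genes Dcstamp and Ocstamp were listed at 0 in both WT libraries and stood between 0.06 and 0.16 FPKM in the KO libraries. Markers of fibroblasts, which can also make cathepsin K, were called higher in 6 of 6 (median 1.13), and their sum was 2913 and 2929 FPKM in the KO libraries, against 1334 and 1311 FPKM in the WT libraries. Neutrophil and mast cell markers were called higher in 6 of 8 (median 0.47), whereas 0 of 8 lymphocyte and NK cell markers reached the level for testing. Markers of other cells were higher as well, with 7 of 7 skeletal muscle markers (median 1.06) and 6 of 6 surface epithelium markers (median 0.97) called higher. Endothelium markers went both ways, with 3 of 5 called higher and 1, Kdr, called lower (−0.37). The part of these cell types in the cathepsin result was not tested.

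Of the cystatins, the protein inhibitors of cysteine cathepsins, Cst3, for the secreted cystatin C, had 225.53 and 227.54 FPKM in the KO libraries, against 214.02 and 221.37 FPKM in the WT libraries (0.06, adjusted p = 0.145), and Cstb, for the intracellular cystatin B, had 46.15 and 52.30 FPKM, against 35.81 and 37.05 FPKM (0.42, adjusted p = 0.00088). Transcripts of all 16 cathepsins summed to 3.59 and 3.60 times the Cst3 level in the KO libraries, against 3.22 and 3.02 times in the WT libraries. That sum includes Ctsd, an aspartic protease gene, so the ratio is not one of cysteine cathepsins alone to their inhibitor.

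TFEB and TFE3 are related basic helix-loop-helix factors that move to the nucleus when MTORC1 is inactive and switch on lysosomal and autophagy genes through a palindrome with the core CACGTG. Tfeb (chromosome 17, positions 47737030 to 47792419) had 5.32 and 5.89 FPKM in the KO libraries, against 3.60 and 3.32 FPKM in the WT libraries (log2 fold change 0.57, SE 0.07, adjusted p = 0.000696). The groups were apart and the KO mean was 1.62-fold the WT mean. Tfe3 had 14.57 and 14.19 FPKM in the KO libraries, against 13.29 and 11.82 FPKM in the WT libraries (0.18, adjusted p = 0.0348). Its call was lost without KO replicate 1 (adjusted p = 0.179), without KO replicate 2 (0.123) and without WT replicate 2 (0.152), and also without a filter and with both rescalings of FPKM (0.087, 0.181 and 0.0871). Mitf, for another factor of the family that acts in pigment cells and osteoclasts, had 5.16 and 5.60 FPKM in the KO libraries, against 5.43 and 4.81 FPKM in the WT libraries (0.06, adjusted p = 0.52).

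Both genes of the main lysosomal membrane glycoproteins were abundant and only Lamp2 passed the test. Lamp2 (chromosome X, positions 38401357 to 38456454, minus strand), which gives splice forms that serve in autophagosome fusion and in chaperone-mediated autophagy, had 61.53 and 61.89 FPKM in the KO libraries, against 45.35 and 45.17 FPKM in the WT libraries (0.44, SE 0.03, adjusted p = 3.06e-05). Values for the whole gene do not show which splice form changed. Lamp1 had 113.91 and 118.19 FPKM in the KO libraries, against 112.81 and 109.62 FPKM in the WT libraries (0.06, SE 0.03, adjusted p = 0.152), with TPM it was called higher (0.18), and its sign turned with lens-free scaling (−0.02). The ratio of Lamp2 to Lamp1 was 0.54 and 0.52 in the KO libraries and 0.40 and 0.41 in the WT libraries, whatever the scaling.

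The letters CACGTG, which read the same on both strands, were looked for in promoter windows from 250 bases before to 30 bases after the start (RefSeq, GRCm38.p6), found for 42 of the 51 members. They were in the windows of 4 of 12 cathepsins (33.3%), 4 of 26 autophagy genes (15.4%) and 1 of 4 of the others, against 7.71% of all 27025 genes with a window. The cathepsins were Ctsa, Ctsd, Ctsf and Ctsl, the autophagy genes Atg3, Atg5, Atg7 and Atg14, and the other gene Lamp1, which held 4 copies. Of the genes that held the letters, Ctsa and Ctsl were called higher, and Ctsd, Ctsf, Lamp1 and the 4 autophagy genes were not called. Ctsk, Ctss, Ctsc and Ctsz did not hold them and were called higher. Ctsb and Ctsh, also called higher, had no window to search. The palindrome TCACGTGA was in 2 of 12 cathepsins (16.7%, Ctsa and Ctsd) and 1 of 26 autophagy genes (3.85%, Atg3), against 1.07% of all genes. The longer palindrome known as the CLEAR element was in none of these members and in 0.359% of all genes. GAGGAAGT or its reverse complement, letters of sites bound by the myeloid factor encoded by Spi1, was in the windows of Ctss and Ctsc among the 12 cathepsins, in 0 of 26 autophagy genes and in 3.23% of all genes. These counts describe letters in short windows and do not show binding. The windows below are given for the 2 neighbours that rose, Ctsk and Ctss, and for Ctsa, Ctsd and Lamp1, the lysosomal genes with more than 1 copy of CACGTG. Atg3 also held 2 copies, and the other window of Ctsa held none. Capitals mark CACGTG or, in Ctss, GAGGAAGT on the other strand.
Ctsk promoter (chr3:95498960-95499239, plus strand): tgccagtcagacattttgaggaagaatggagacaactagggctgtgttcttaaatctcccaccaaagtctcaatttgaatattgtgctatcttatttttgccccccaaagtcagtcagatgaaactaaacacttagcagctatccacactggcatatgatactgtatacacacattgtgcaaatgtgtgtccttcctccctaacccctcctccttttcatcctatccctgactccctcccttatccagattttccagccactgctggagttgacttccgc
Ctss promoter (chr3:95526536-95526815, plus strand): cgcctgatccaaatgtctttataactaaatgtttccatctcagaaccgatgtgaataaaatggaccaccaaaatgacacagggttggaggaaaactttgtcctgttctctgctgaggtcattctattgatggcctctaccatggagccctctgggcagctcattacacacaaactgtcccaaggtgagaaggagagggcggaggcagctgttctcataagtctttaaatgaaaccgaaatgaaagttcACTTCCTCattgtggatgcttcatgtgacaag
Ctsa promoter (chr2:164833523-164833802, plus strand): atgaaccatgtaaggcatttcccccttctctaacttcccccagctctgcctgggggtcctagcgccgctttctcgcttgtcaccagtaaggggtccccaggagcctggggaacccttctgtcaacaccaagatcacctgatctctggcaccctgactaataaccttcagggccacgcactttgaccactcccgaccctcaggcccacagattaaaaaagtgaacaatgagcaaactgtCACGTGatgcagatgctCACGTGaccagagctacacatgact
Ctsd promoter (chr7:142387798-142388077, minus strand): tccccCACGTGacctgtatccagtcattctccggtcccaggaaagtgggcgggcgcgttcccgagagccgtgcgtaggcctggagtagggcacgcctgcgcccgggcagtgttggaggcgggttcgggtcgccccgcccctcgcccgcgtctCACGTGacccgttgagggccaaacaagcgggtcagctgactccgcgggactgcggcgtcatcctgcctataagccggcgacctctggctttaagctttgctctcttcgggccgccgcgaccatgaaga
Lamp1 promoter (chr8:13158911-13159190, plus strand): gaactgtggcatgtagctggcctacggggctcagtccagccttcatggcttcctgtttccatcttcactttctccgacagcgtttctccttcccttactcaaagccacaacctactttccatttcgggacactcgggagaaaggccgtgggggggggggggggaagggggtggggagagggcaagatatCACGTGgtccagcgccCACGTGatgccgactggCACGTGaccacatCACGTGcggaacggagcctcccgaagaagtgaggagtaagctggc

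Of the genes that start autophagy, most were not called. Ulk1, for the kinase that starts the process, had 23.68 and 23.82 FPKM in the KO libraries, against 21.81 and 20.61 FPKM in the WT libraries (0.16, adjusted p = 0.0152), and it was the only member of the initiation complex among 6 to be called. The call was lost without KO replicate 1 (adjusted p = 0.0818), without KO replicate 2 (0.0917) and without WT replicate 2 (0.0763), and also with lens-free scaling (0.173) and with median-of-ratios scaling (0.0559). Rb1cc1, for the scaffold FIP200, had 12.49 and 12.03 FPKM in the KO libraries, against 11.42 and 11.23 FPKM in the WT libraries (adjusted p = 0.088). Ulk3, for a related kinase, had 10.61 and 11.10 FPKM in the KO libraries, against 10.04 and 9.91 FPKM in the WT libraries (adjusted p = 0.0883). Atg13, for the regulatory subunit, had 18.44 and 18.10 FPKM in the KO libraries, against 19.33 and 19.01 FPKM in the WT libraries (−0.07, adjusted p = 0.182), and was called lower under both rescalings of FPKM. Ulk2 and Atg101 overlapped between the groups.

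Among 7 tested genes of membrane nucleation and supply, 1 was called in each direction. Becn1, for the Beclin 1 subunit of the lipid kinase complex, had 60.52 and 56.22 FPKM in the KO libraries, against 64.31 and 63.69 FPKM in the WT libraries (−0.13, adjusted p = 0.0282). Without KO replicate 2, the lower of the 2 KO values, adjusted p was 0.167, and the call was lost as well without WT replicate 1 (0.122), without WT replicate 2 (0.0974), without a filter (0.069) and with TPM (0.819). Becn1 exons share 3104 bases with Cntd1 on the other strand, which was not called (−0.26, adjusted p = 0.0786). Atg2b, for a lipid transfer protein, had 11.91 and 12.77 FPKM in the KO libraries, against 10.91 and 11.08 FPKM in the WT libraries (0.15, adjusted p = 0.0368). Its call was lost without KO replicate 2 (adjusted p = 0.191), without WT replicate 1 (0.132), without WT replicate 2 (0.0999), without a filter (0.0668) and under both rescalings of FPKM (0.229 and 0.116), and its neighbour on the other strand, Gskip, was called higher (0.24). Wipi2, for the lipid-binding protein that recruits ATG16L1, had 31.87 and 30.99 FPKM in the KO libraries, against 34.42 and 32.99 FPKM in the WT libraries (−0.10, adjusted p = 0.0603), and was called lower under both rescalings of FPKM and with the replicate block (adjusted p = 0.049). Atg2a, the paralog of Atg2b, had 9.81 and 9.97 FPKM in the KO libraries, against 8.95 and 9.16 FPKM in the WT libraries (adjusted p = 0.0774).

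The conjugation machinery also held 1 call each way among 7 genes. Atg12 (chromosome 18, positions 46730144 to 46741580), for the ubiquitin-like protein joined to ATG5, had 24.75 and 24.34 FPKM in the KO libraries, against 30.69 and 28.37 FPKM in the WT libraries (−0.26, SE 0.04, adjusted p = 0.00273). Atg16l2, for a relative of the ATG16L1 scaffold, had 8.73 and 8.36 FPKM in the KO libraries, against 7.19 and 7.58 FPKM in the WT libraries (0.19, adjusted p = 0.0242), and its call was lost without KO replicate 1 (adjusted p = 0.129), without KO replicate 2 (0.0665), without WT replicate 1 (0.107) and under both rescalings of FPKM (0.121 and 0.0654). Atg3, for the enzyme that passes ATG8 proteins to lipid, had 14.46 and 14.63 FPKM in the KO libraries, against 16.63 and 15.43 FPKM in the WT libraries (−0.13, adjusted p = 0.0541). It was called lower under both rescalings, without WT replicate 2 (adjusted p = 0.0359) and with the replicate block (0.0499). Atg7, for the activating enzyme of the pathway, had 10.23 and 10.03 FPKM in the KO libraries, against 9.22 and 9.33 FPKM in the WT libraries (0.12, adjusted p = 0.0735). Values of Atg5, Atg10 and Atg16l1, of the same machinery, overlapped between the groups.

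The ATG4 proteases cut ATG8 proteins before conjugation and release them from membrane afterwards. Atg4a (chromosome X, positions 140956907 to 141164270) had 10.26 and 10.04 FPKM in the KO libraries, against 7.82 and 7.83 FPKM in the WT libraries (0.34, SE 0.05, adjusted p = 0.00105). Its groups were apart by far more than their spread, but a copy annotated as Atg4a-ps could share reads with it. Atg4b had 23.43 and 24.12 FPKM in the KO libraries, against 22.31 and 22.03 FPKM in the WT libraries (0.10, adjusted p = 0.0599). Atg4c had 7.42 and 7.89 FPKM in the KO libraries, against 7.07 and 7.34 FPKM in the WT libraries (adjusted p = 0.286), and Atg4d had 12.08 and 12.55 FPKM, against 11.29 and 11.99 FPKM (adjusted p = 0.237). All 4 had both KO values above both WT values, as had 45.6% of all genes tested. Only Atg4a was called except with TPM, where the other ATG4 genes were called higher as well, as were 49.9% of all genes.

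The ATG8 family, the proteins that coat the growing membrane and bind cargo receptors, went both ways and its make-up shifted. Gabarap (chromosome 11, positions 69991143 to 69994951) had 151.44 and 155.38 FPKM in the KO libraries, against 114.67 and 118.37 FPKM in the WT libraries (0.39, SE 0.03, adjusted p = 6.42e-05). Map1lc3a, for LC3A, had 63.40 and 67.53 FPKM in the KO libraries, against 55.43 and 55.03 FPKM in the WT libraries (0.24, adjusted p = 0.00158). These were the 2 members of the family that rose. Gabarapl1 had 49.79 and 51.78 FPKM in the KO libraries, against 62.35 and 61.48 FPKM in the WT libraries (−0.28, adjusted p = 0.000409). Gabarapl2, also known as GATE-16, had 71.20 and 73.53 FPKM in the KO libraries, against 83.16 and 84.81 FPKM in the WT libraries (−0.21, adjusted p = 0.00121). All these calls were kept, with their direction, under every setting other than the demand for a change of at least 1. Map1lc3b, for LC3B, the form most used to follow autophagy, had 65.53 and 69.01 FPKM in the KO libraries, against 70.48 and 70.84 FPKM in the WT libraries (−0.07, adjusted p = 0.123), was called lower under both rescalings of FPKM (−0.15 and −0.12) and had the opposite sign with TPM (0.05).

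As shares of the summed family, which do not depend on library scaling, Gabarap made up 37.7% and 37.2% in the KO libraries, against 29.7% and 30.3% in the WT libraries. Gabarapl1 made up 12.4% and 12.4% in the KO libraries, against 16.1% and 15.7% in the WT libraries, and Gabarapl2 17.7% and 17.6%, against 21.5% and 21.7%. The ratio of Map1lc3a to Map1lc3b was 0.97 and 0.98 in the KO libraries and 0.79 and 0.78 in the WT libraries, and that of Gabarap to Gabarapl2 was 2.13 and 2.11, against 1.38 and 1.40. The family as a whole summed to 401.4 and 417.2 FPKM in the KO libraries, against 386.1 and 390.5 FPKM in the WT libraries. Retinal neuron and progenitor markers were called lower in 9 of 10 and higher in 1 in the same libraries, where 21.1% of all genes tested were called lower and 33.5% higher. These markers summed to 608.6 and 612.5 FPKM in the KO libraries, against 796.6 and 792.6 FPKM in the WT libraries. Their part in the shares of the ATG8 family was not tested.

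**Figure D3:**
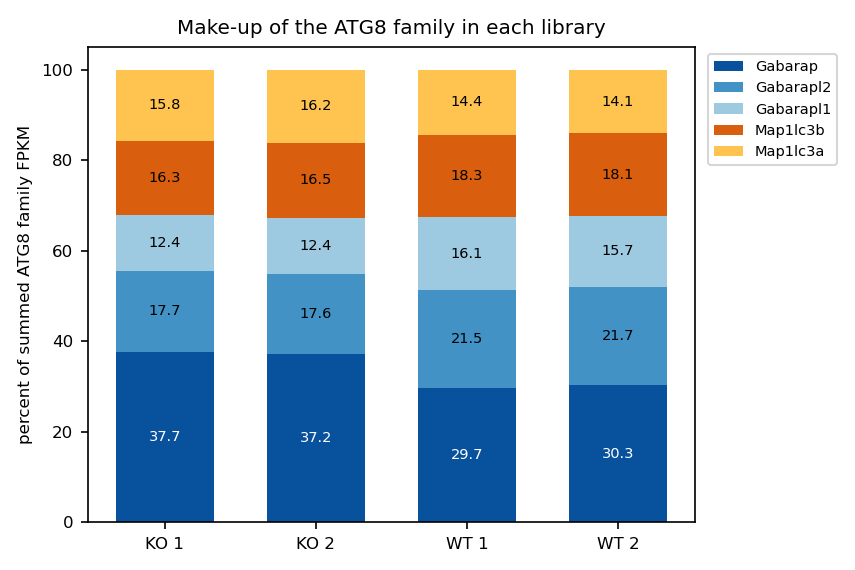
Share of each ATG8 family gene in the summed FPKM of the family, in percent, for each library, KO libraries left and WT libraries right. The Gabarap segment covers 37.7% and 37.2% in the KO libraries, against 29.7% and 30.3% in the WT libraries.

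Sqstm1, for the receptor p62 that carries ubiquitinated cargo to the ATG8 proteins, had 93.70 and 91.00 FPKM in the KO libraries, against 91.96 and 89.85 FPKM in the WT libraries. The groups overlapped (0.02, SE 0.03, adjusted p = 0.567), the sign turned under both rescalings of FPKM (−0.06 and −0.03), and with TPM it was called higher (0.14). Transcript levels do not show autophagic flux, and the amount of p62 protein was not measured here.

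Other genes of the pathway, from lists of textbook members, are given next, to be read against the 33.5% of all genes called higher and 21.1% called lower. Of 22 further autophagy genes 3 were higher and 2 lower, with a median of 0.03. Vamp8, for a SNARE of fusion with the lysosome, had 49.27 and 50.45 FPKM in the KO libraries, against 30.06 and 31.99 FPKM in the WT libraries (0.67), and Rubcn (0.30) and Nrbf2 (0.25), for regulators of the lipid kinase complex, were higher, whereas Vps16 was lower (−0.13). Of 12 further cargo receptors 5 were higher and 2 lower, with a median of 0.04. Bnip3, a mitophagy receptor gene that hypoxia induces, had 99.03 and 101.08 FPKM in the KO libraries, against 59.58 and 60.10 FPKM in the WT libraries (0.73), Calcoco1 (0.30) and Phb2 (0.21) were also higher, and Optn was lower (−0.44). Among 20 genes of MTORC1 and nutrient sensing 5 were higher and 4 lower, with a median of −0.03, including Flcn (0.37), whose protein controls TFEB and TFE3, Tsc2 (−0.44), Rragb (−0.35) and Mtor (−0.24).

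The lysosomal lists are likewise to be read against 33.5% of all genes tested called higher and 21.1% called lower. Of 41 other lysosomal hydrolases and cofactors, 22 were higher and 4 lower (53.7% and 9.76%), with a median of 0.19. The hyaluronidase gene Hyal2 (0.62), the arylsulfatase gene Arsa (0.54) and the cholesterol carrier gene Npc2 (0.28) had the lowest p-values. Of 18 other lysosomal membrane genes tested 8 were higher and 4 lower, led by the tetraspanin gene Cd63 (237.88 ± 0.99 FPKM in the KO and 153.1 ± 6.80 FPKM in the WT), Laptm4a (0.39), Cd68 (0.85), which is also on the macrophage list, and Sidt2 (0.35). Genes of mannose 6-phosphate sorting, which brings hydrolases to the lysosome, were higher in 3 of 9 and lower in 1, with Igf2r, for the large mannose 6-phosphate receptor, at 32.53 and 32.70 FPKM in the KO libraries, against 21.24 and 20.81 FPKM in the WT libraries (0.61). Gga2 (0.42) and Gga3 (0.23) were higher and Gnptg was lower (−0.14). Of 20 tested subunits of the proton pump that acidifies the lysosome, 2 were higher and 6 lower, with a median of −0.07. Tcirg1, for the subunit that osteoclasts place in their ruffled border had 14.68 and 15.07 FPKM in the KO libraries, against 8.47 and 8.20 FPKM in the WT libraries (0.77). Of a pair of paralogs, Atp6v0e was higher (0.62) and Atp6v0e2 lower (−0.55), and Atp6v1b2 was lower (−0.24).

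**Figure D4:**
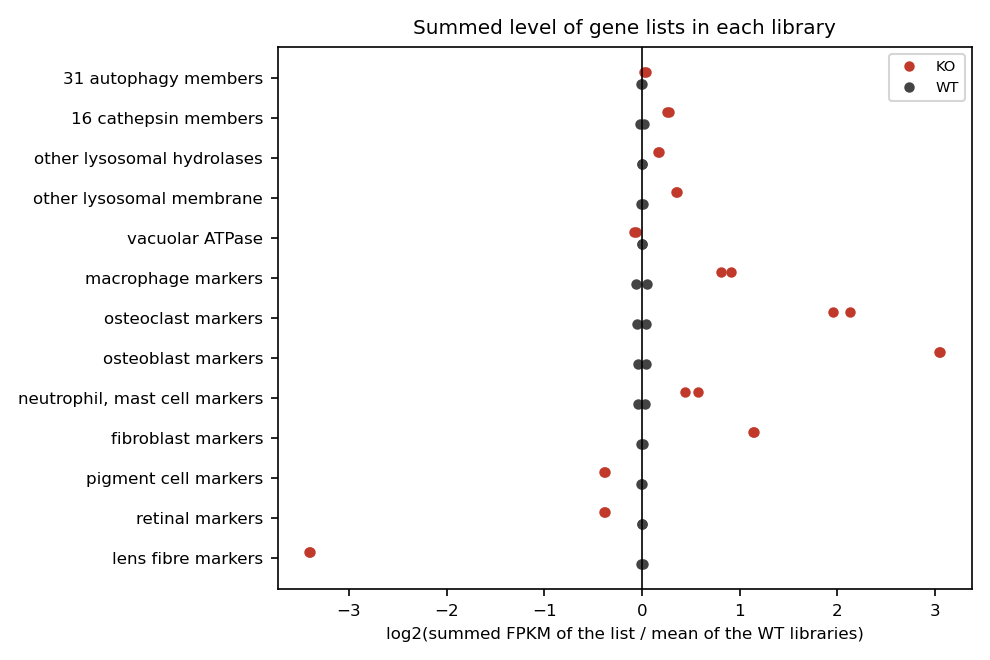
Summed FPKM of each gene list in each library, divided by the mean of the WT libraries and shown on a log2 axis, with KO points above WT points in each row. Cathepsin sums (809.5 and 820.0 FPKM in the KO libraries, against 688.3 and 667.8 FPKM in the WT libraries) moved less than macrophage, osteoclast and fibroblast sums, and autophagy sums (908.9 and 917.2 against 895.9 and 888.9 FPKM) stayed near 0.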

How the data were processed

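Each library was deposited as a table of FPKM per gene, per the file headers. The deposited TPM values stand beside them and equal FPKM brought to 1 sum for all libraries. HISAT2, TopHat, Cufflinks and DESeq appear with no version or role, per the submitters' processing notes, as do the builds GRCm38 and GRCh38. Annotation, filters and strand use are not stated there. Of the gene symbols, 26 shown as dates were restored from Entrez numbers. Counts were not used here. Low FPKM values of genes with a single transcript lie on steps of 1 fragment, which gave the depths, but only 57.4% to 61.5% of 324 to 341 such values were within 0.15 of a whole number (chance 30.0%), so no count test was run and intervals were not given.

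KO was compared with WT on log2(FPKM + 1) over the genes that averaged 1 FPKM or more. The model was limma 3.58.1 under R 4.3.3, its prior variance following the mean level, and genotype was the only term (2 residual and 4.89 prior degrees of freedom), with two-sided Benjamini-Hochberg adjusted p under 0.05 over all genes tested. This is the test planned for FPKM. Fold changes on this scale understate changes of low genes. The fit was tested on simulated data. Positions come from GENCODE M21 on GRCm38 and promoter windows from RefSeq on GRCm38.p6. Python 3.11.15 with pandas 2.3.3 was used for tables.

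The members and lists were chosen with earlier results of these data known. Library values are given for Ctsk, Ctss, Sqstm1, Map1lc3a, Map1lc3b, the TFEB and LAMP genes and the 4 members of each role with the lowest p, and of other lists up to 4 genes with the lowest p are named. Library values of further cathepsins and of the members below the level for testing, and the within-library ratios, were chosen after values were seen. So was the choice to name Dcstamp, Ocstamp, Adgre1, Sp7, Phex and overlapping genes. Of 11 cystatins listed, 5 have no row in these tables. The alternatives tried were omission of the filter, a stricter one (5 FPKM in 2 or more libraries), 0.1 as the pseudocount, a block for the replicate number, scaling to the sum without 33 crystallin and erythroid genes (lens-free scaling), median-of-ratios scaling, TPM, a minimum log2 fold change of 1, and omission of each library.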

Additional observations from a re-analysis of the deposited data

How the results depend on the processing

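Among 45 members tested, all 45 kept their call with a pseudocount of 0.1, 44 of 44 with the filter at 5 FPKM and 41 without a filter. For autophagy genes higher (6), the count was 3 with lens-free scaling, 3 with median-of-ratios scaling, 17 with TPM and 0 with a log2 fold change of at least 1, and 3 to 4 with each library left out. For autophagy genes lower (4) it was 8, 8, 3 and 0 under those settings and 3 to 4 with each library left out. For cathepsins higher (8) it was 1 with a log2 fold change of at least 1, otherwise 8 or 9, and 7 to 8 with each library left out. For cathepsins lower (1) it was 2 under both rescalings of FPKM, and 0 with TPM, without a filter, with a log2 fold change of at least 1, with the replicate block and with any library left out. Of all genes, 1667 were lower with TPM, and 211 were higher and 115 lower with a log2 fold change of at least 1, against 4654 higher and 2932 lower. The higher share of called genes was 80.6% with TPM, 44.9% with lens-free scaling and 50.6% with median-of-ratios scaling, against 61.3%. The autophagy median (0.03) was −0.0499 with lens-free scaling, −0.0213 with median-of-ratios scaling, 0.15 with TPM, and 0.0073 to 0.0404 with each library left out. The cathepsin median (0.34) was 0.27, 0.29 and 0.48 under those settings, 0.38 with a pseudocount of 0.1, 0.25 without a filter, and 0.28 to 0.43 with each library left out. The cathepsin called in addition without a filter was Ctsj (0.28).

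The sign turned with TPM in Map1lc3b (0.0496), Atg101 (0.1166), Atg13 (0.0509), Atg10 (0.0978), Atg16l1 (0.0788), Atg5 (0.0715), Atg14 (0.0543), Wipi1 (0.1087), Wipi2 (0.0204) and Ctsf (0.0524). With lens-free scaling it turned in Ulk2 (−0.0415), Sqstm1 (−0.0582), Atg9a (−0.0054), Ctsd (−0.0601) and Lamp1 (−0.02). With median-of-ratios scaling it turned in Ulk2 (−0.0135), Sqstm1 (−0.0291) and Ctsd (−0.0309). With each library left out the range crossed 0 in Atg101 (−0.0421 to 0.0384), Atg10 (−0.0464 to 0.0226), Atg16l1 (−0.0776 to 0.0044), Wipi1 (−0.0244 to 0.003) and Ctsd (−0.0027 to 0.0449). Of these, none was called in the test reported. Wipi1, Ulk2, Sqstm1, Atg9a, Ctsd and Lamp1 were called higher with TPM. The cause was not tested. The same-numbered KO and WT libraries share only a number, with a correlation of 0.04 between the paired deviations over 13887 genes. The replicate block gave 6 autophagy genes higher and 6 lower and 8 cathepsins higher and 0 lower. With 2 libraries a group, small differences are limited by a spread that rests on 2 values.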

Other observations

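Ratios of a cathepsin to a marker of a cell type that makes it differed between groups to unequal degrees. Ctsk over Col1a1, the collagen gene of fibroblasts and osteoblasts, was 0.0637 and 0.0696 in the KO libraries, against 0.0617 and 0.0577 in the WT libraries. Ctsk over Acp5, the osteoclast phosphatase gene, was 6.88 and 6.20 in the KO libraries, against 20.9 and 19.0 in the WT libraries. Acp5 stood at only 0.95 and 0.97 FPKM in the WT libraries and reached the level for testing through its KO values alone. The WT values of that ratio thus rest on a low divisor. Ctss over Csf1r, for the receptor that macrophages need, was 1.31 and 1.35 in the KO libraries, against 1.19 and 1.28 in the WT libraries. These ratios were chosen after the cathepsin values were seen, do not depend on library scaling and were not tested.

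Of the osteoblast markers, Ibsp, Sp7 and Dmp1 reached the level for testing through their KO values alone. Phex was below that level, so no count is given for this list. The list summed to 170.0 and 171.7 FPKM in the KO libraries, against 21.19 and 20.09 FPKM in the WT libraries. Pigment cell markers, a cell type in which cathepsin D is abundant, were called lower in 5 of 7 tested, against 21.1% of all genes tested. Their sum was 328.8 and 325.8 FPKM in the KO libraries, against 427.2 and 424.6 FPKM in the WT libraries.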
